A study of Mus musculus with 6 samples.

Results

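Alpha and beta tubulin are the building blocks of microtubules, and the 10 genes described here encode the isotypes that make up most of the tubulin of brain. They were chosen by gene symbol, as 4 alpha tubulin genes (Tuba1a, Tuba1b, Tuba1c and Tuba4a) and 6 beta tubulin genes (Tubb2a, Tubb2b, Tubb3, Tubb4a, Tubb4b and Tubb5) of 54429 genes in the count tables. The rule used gene names and no threshold on a measured value. RNA was sequenced from bulk lysate of the prefrontal cortex (PFC) of mice aged 6 months in 3 groups with 2 libraries each. The WT group, (C57BL/6 x C3H), received vehicle, the Tau group, PS19(P301S), received vehicle, and the Tau+UNC0642 group, PS19(P301S), received UNC0642, an inhibitor of the histone H3 lysine 9 methyltransferases EHMT1 and EHMT2. Injections were given into the peritoneum once a day for 3 days, UNC0642 at 1 mg/kg and vehicle as saline with DMSO, and tissue was taken 24 h after the last one. PS19(P301S) mice carry a human tau transgene with the P301S mutation under the mouse prion protein promoter, on the same mixed background as the WT mice.

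A microtubule grows by adding dimers of 1 alpha and 1 beta tubulin, and the isotypes differ mostly in the acidic tail that faces outward and is modified by dedicated enzymes. Tau binds along the microtubule lattice, which makes tubulin its direct partner in axons. Cells also adjust tubulin RNA to the amount of free dimer, since the factor TTC5 recognises the start of a newly made tubulin chain on the ribosome and has its mRNA degraded.

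The start of the coding sequence is shown first, since it is the stretch through which tubulin mRNAs are recognised during translation. The first 30 coding bases are given for 2 alpha and 3 beta genes, with the first 12 (the first 4 codons) in capitals, from GENCODE transcripts of mouse build GRCm38.
Tuba1a: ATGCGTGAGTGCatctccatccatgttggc
Tuba1c: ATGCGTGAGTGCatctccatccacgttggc
Tubb2b: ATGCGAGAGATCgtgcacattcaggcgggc
Tubb4a: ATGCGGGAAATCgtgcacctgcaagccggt
Tubb4b: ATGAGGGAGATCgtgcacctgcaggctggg
Over the whole coding sequence, identity ranged from 84.7% to 98.3% among the 6 alpha pairs and from 81.2% to 96.5% among the 15 beta pairs.

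Because of this likeness, a read from 1 tubulin gene can match another. Each transcript was therefore read in windows of 50 bases, and a window was counted as shared when it also occurred in another annotated gene. Shared windows made up 75.5% of Tuba1a, 83.1% of Tuba1b and 61.0% of Tuba1c, and Tuba1c alone matched 46.9% of the Tuba1a windows. Among beta genes the share was 49.6% for Tubb2a and 39.3% for Tubb2b, mostly with each other, and 55.5% for Tubb4b, mostly with the pseudogene Tubb4b-ps1. By contrast, Tubb3 shared none, Tubb4a 0.184% and Tubb5 0.115%. For Tuba4a the share was 48.8%, nearly all of it with Stk16, which overlaps it on the opposite strand. How reads that match several genes, and the strand, were treated in counting is not given in the sources used here, so levels of Tuba1a, Tuba1b, Tuba1c, Tubb2a, Tubb2b and Tubb4b, and of Tuba4a where it overlaps Stk16, are uncertain in their split.

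**Figure D1:**
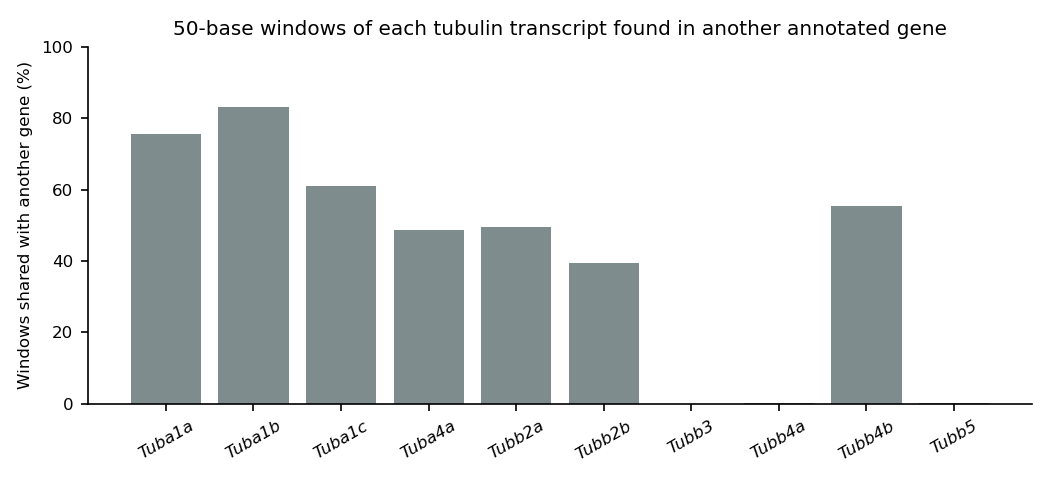
Share of 50-base windows of each tubulin transcript (y axis, %) that also occur in another annotated gene, for the 10 genes (x axis). Bars reach 83.1% for Tuba1b and are at or near 0 for Tubb3, Tubb4a and Tubb5, the genes whose counts depend least on how shared reads were assigned.

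Libraries held 17005664 to 28972176 counts, of which the 10 tubulin genes took 0.251 to 0.281%, and all 10 were among the 20409 genes tested. Levels are given as CPM, read counts scaled by TMM to a common library size, replicate 1 before replicate 2 in each group. Markers of cortical excitatory neurons were present in every library, at 1228 to 1445 CPM in sum over 6 genes. Prnp, whose promoter drives the transgene, goes against one label. It read 1652 CPM in the library labelled WT replicate 1 and 873 in WT replicate 2, beside 1470 to 1694 in the 4 libraries of the transgenic groups. Mapt, the mouse tau gene, read 575.6 CPM in that library and 448.7 in WT replicate 2, beside 570.5 to 614.0 in the 4 transgenic libraries. The WT label of that library is thus in doubt, and WT values and differences from WT include it unless it is said to be left out. Xist read 191 to 317 CPM in WT replicate 2 and both Tau libraries and at most 0.197 in the other 3, so expression from the sex chromosomes split the Tau from the Tau+UNC0642 libraries completely. UNC0642 and sex cannot be told apart in that comparison. Tau replicate 2 stood apart by 8 oligodendrocyte markers, with 5517 CPM in sum against 1458 to 2956 elsewhere, and by 6 striatal markers, with 181 against 67.9 to 88.0.

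Per length, as CPM divided by exon length in kilobases (RPKM), Tubb2a had the highest mean level over the 6 libraries at 249.2 (range 218.9 to 267.7). Tubb3, the beta isotype typical of neurons, followed at 191.2, beside Tuba1a, the main alpha isotype of neurons in development, at 189.4, and Tubb5 at 164.6. Tubb3 (170.5 to 203.6) and Tuba1a (170.8 to 208.5) had overlapping ranges and changed places between libraries, Tubb3 being higher in 2 of 6. Tubb5 (155.6 to 177.3) lay below both of them in each of the 6 libraries. Tuba4a was at 124.6 RPKM, Tubb4b at 106.4 and Tubb4a at 105.1, and these last neighbours changed places too, Tubb4b being higher only in the 2 Tau+UNC0642 libraries. Tuba1b at 52.8, Tubb2b at 22.3 and Tuba1c at 1.66 RPKM came last, each below the range of the one before. When the length of 1 transcript a gene was used in place of all exons joined, Tubb5 moved up to 206.7 RPKM, the second position, and the other genes kept their order relative to each other.

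As shares of reads per kilobase, Tuba1a made up 52.5% ± 0.81 of alpha tubulin in the WT libraries, 52.6% ± 0.59 in Tau and 49.2% ± 0.091 in Tau+UNC0642 (SD, n = 2 each). The share of Tuba4a, the alpha isotype that is made without the terminal tyrosine, was 32.7% ± 0.63, 32.9% ± 0.31 and 35.8% ± 0.13 in the same order. The Tau+UNC0642 libraries thus lay below the other groups for Tuba1a and above them for Tuba4a, without overlap. Tuba1c made up 0.307% ± 0.0078, 0.339% ± 0.011 and 0.696% ± 0.053 of alpha tubulin. Among beta tubulins, Tubb4a, a brain isotype with a known part in myelinating cells, held 13.7% ± 1.5, 13.8% ± 0.035 and 10.1% ± 1.9. No test was run on these shares, which add up to a whole within each class.

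**Figure D2:**
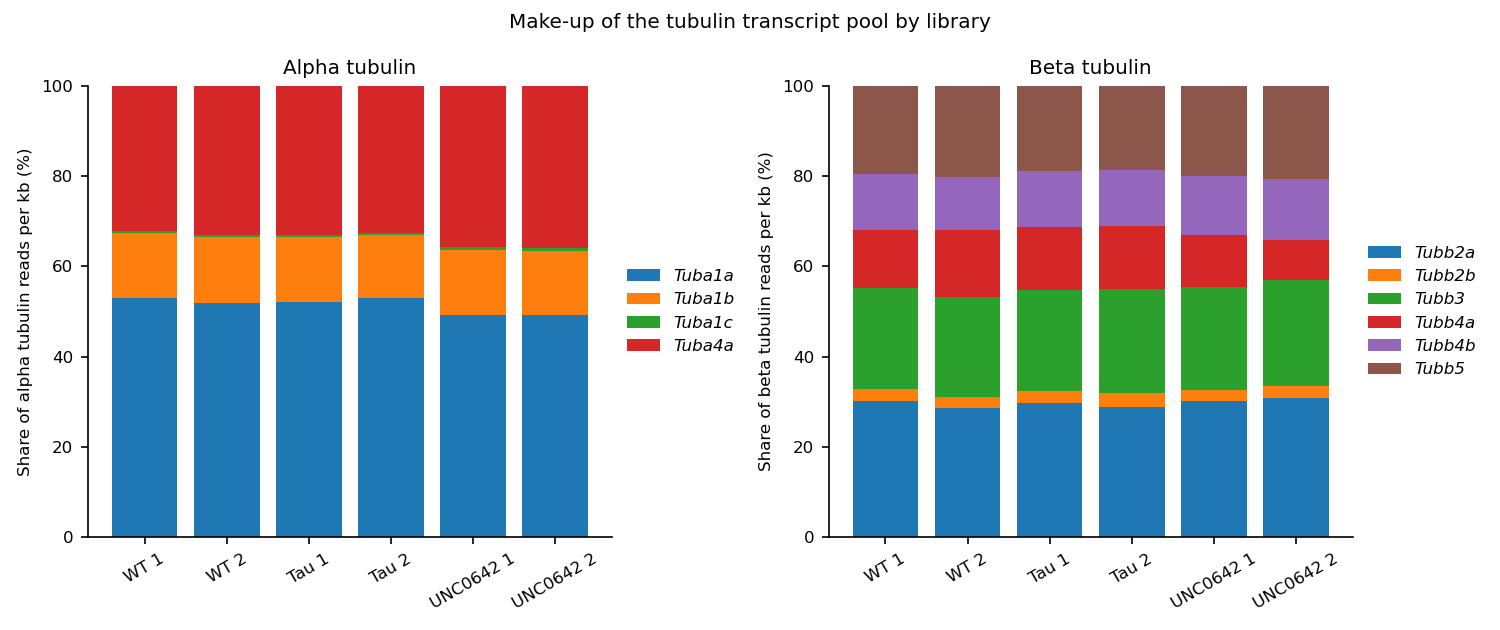
Make-up of alpha tubulin (left) and beta tubulin (right) in each of the 6 libraries (x axis), as the share of reads per kilobase (y axis, %), with 1 colour a gene. Tuba1c is a thin band that stays under 1% in every library, and the Tubb4a band is thinnest in the libraries of the Tau+UNC0642 group, labelled UNC0642.

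The first comparison asks how tubulin RNA in vehicle-treated P301S Tau mice differed from that in WT mice. All 10 genes had a log2 fold change above 0, against 50% of all genes tested, but the changes were small, from 0.06 to 0.36 with a median of 0.19. One gene, Tubb2b, passed the call rule, which asked in edgeR for p under 0.05 together with a difference of 1.2-fold or more, where 9.81% of all genes were called and 3.72% called up. Without the fold limit 6 of 10 passed, all upward, where 12.4% of all genes passed and 6.05% did so upward. None passed an adjusted p of 0.05 in edgeR (0.157% of all genes), DESeq2 (153 genes in all) or limma-voom. The counts at an unadjusted p under 0.05 were 6, 5 and 6. In bulk tissue, a difference in the number of cells of a type and a difference in RNA per cell cannot be told apart.

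Among alpha genes, Tuba1a read 332.9 and 307.9 CPM in the WT libraries against 369.1 and 376.0 in Tau. Tau lay higher without overlap, by a log2 fold change of 0.22 ± 0.073 (SE; edgeR adjusted p = 0.312). Tuba4a, an isotype of mature neurons, read 415.4 and 403.6 CPM in WT and 480.7 and 475.5 in Tau. This was the smallest p of the 10 genes, with a log2 difference of 0.22 ± 0.070 and an edgeR adjusted p of 0.288. Tuba1b, expressed in nearly all cells, stood at 93.7 and 90.3 CPM in WT and at 105.8 and 103.3 in Tau, a log2 difference of 0.18 ± 0.077. The rare Tuba1c, with 2.48 and 2.27 CPM in WT and 3.11 and 2.98 in Tau, rested on 52 to 87 counts a library, and its 95% interval ran from -0.19 to 0.91 on the log2 scale.

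Among beta genes, Tubb2b, an isotype of young neurons in which mutations disturb the layering of cortex, read 51.0 and 44.4 CPM in WT and 55.5 and 59.3 in Tau. Both Tau libraries lay higher, and the log2 fold change of 0.27 ± 0.098 only just cleared the fold limit (edgeR adjusted p = 0.339). Its close relative Tubb2a was at 392.3 and 352.5 CPM in WT and 431.0 and 393.7 in Tau, with Tau replicate 2 just above the library labelled WT replicate 1. Tubb3 read 338.8 and 318.4 CPM in WT and 378.8 and 368.4 in Tau, and Tubb4b, found in most tissues and in cilia, 209.8 and 187.6 in WT and 234.0 and 223.7 in Tau. Both were higher in Tau without overlap, by 0.19 ± 0.074 for Tubb3 and 0.20 ± 0.080 for Tubb4b on the log2 scale, under the fold limit. Tubb4a had 228.1 and 253.2 CPM in WT against 276.9 and 261.9 in Tau, a log2 difference of 0.16 ± 0.11. Tubb5, the beta isotype of dividing and many other cells, was the only member whose groups overlapped, with 527.4 and 517.6 CPM in WT and 567.8 and 523.7 in Tau. Both Tau libraries lay above both WT libraries for 9 of 10 members, which 21.9% of all genes did.

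Summed over the 10 genes, the level was 2592 and 2478 CPM in WT and 2903 and 2788 in Tau, a log2 ratio of 0.17 that was 0.22 for the alpha and 0.14 for the beta genes. The 4578 genes with a mean of at least 50 CPM, a group set after the values were seen, had a median of 0.08 in the same comparison with 75.5% above 0, so a small positive difference was common among abundant genes. Summed levels of 7 neuronal markers moved the same way, at 7980 and 7808 CPM in WT and 8649 and 8479 in Tau. Of the 7, 2 were called up and 6 had a difference above 0, while Syt1 was lower. Sums of 6 markers of cortical excitatory neurons overlapped, at 1261 and 1408 CPM in WT and 1445 and 1268 in Tau. The part of neuronal RNA in the tubulin difference was not tested. Among 6 markers of immature neurons, whose cells are rich in Tubb2b and Tubb3, the summed level was 99.0 and 80.9 CPM in WT and 64.5 and 59.4 in Tau. This sum was carried by Dcx (log2 -0.98) and Sox4 (log2 -0.91), the only 2 of the 6 called, while 2 others had a difference above 0. Leaving out the library labelled WT replicate 1 leaves only libraries with Xist in this comparison, with WT replicate 2 as the sole WT sample. Tuba1a then stood at 0.27, Tubb2b at 0.36 and Tubb4b at 0.28 on the log2 scale, each above the fold limit, and the median was 0.23. Without WT replicate 2, Tubb2b was at 0.17 and the median at 0.16. Without Tau replicate 2, Tubb2b was at 0.22 and the median at 0.21. In both of these fits Tubb2b lay under the fold limit.

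**Figure D3:**
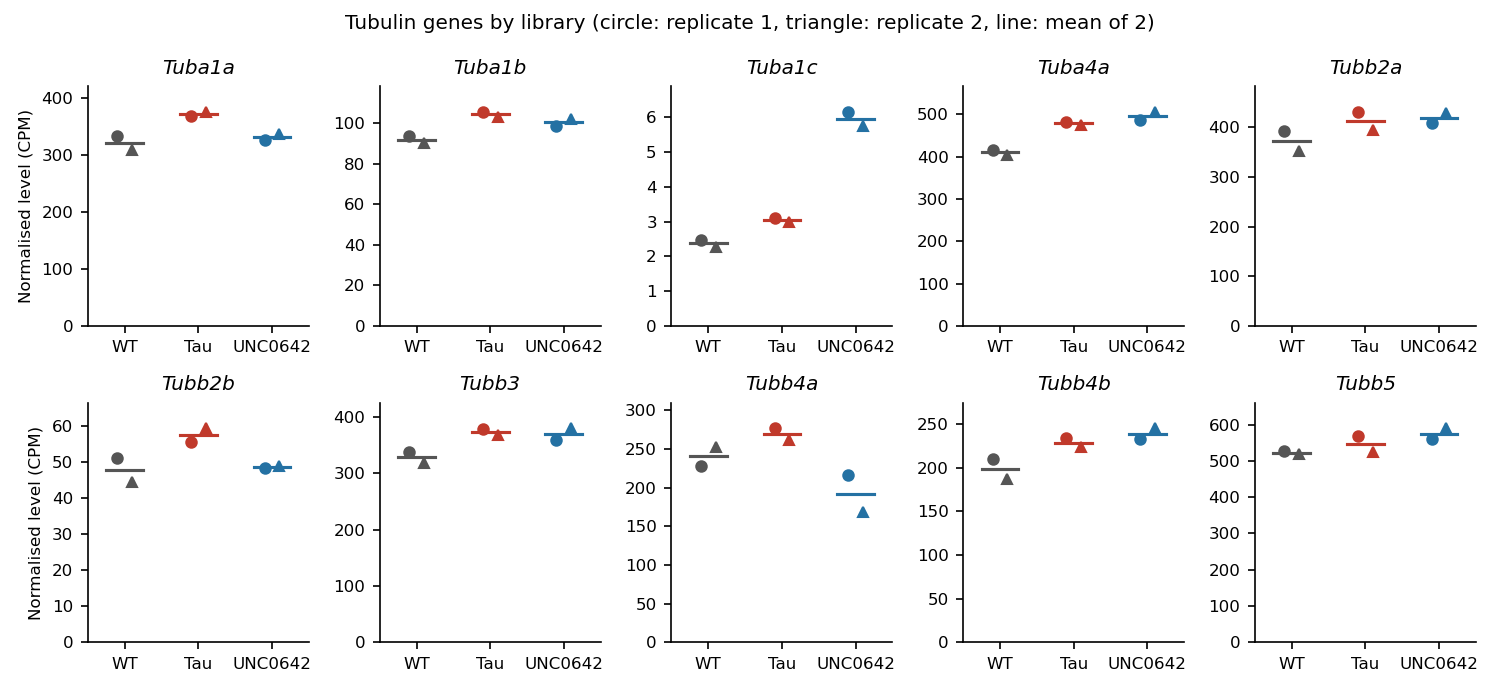
Level of each tubulin gene (y axis, TMM-scaled CPM, from 0) in the WT, Tau and Tau+UNC0642 groups (x axis, the last labelled UNC0642), with circles for replicate 1, triangles for replicate 2 and lines for the mean of 2. Tuba1c stands apart by its rise to 6.16 and 5.73 CPM in the Tau+UNC0642 libraries, and Tubb4a by its fall to 216.1 and 168.8.

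The second comparison asks how UNC0642 changed tubulin RNA in P301S Tau mice. The genes did not move together: Tuba1c rose and Tubb4a fell, while the median of the 10 genes was 0.0032 on the log2 scale, with 5 genes above 0 and 5 below (49.6% of all genes were above 0). These 2 of 10 members called by edgeR stand beside 7.69% of all genes called, 3.73% up and 3.95% down. None passed an adjusted p of 0.05 in edgeR (0.0196% of all genes) or limma-voom. In each of these, 4 passed an unadjusted p of 0.05 (8.86% of all genes in edgeR). In DESeq2, Tubb4a passed an adjusted p of 0.05, where 71 genes passed in all, against 4 in edgeR.

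Tuba1c, the least abundant of the 10, read 3.11 and 2.98 CPM in Tau and 6.16 and 5.73 in Tau+UNC0642, from 87 and 52 counts and from 104 and 130. The treated libraries lay near 6 CPM and the 4 others at 3.11 CPM or below. The log2 fold change was 0.96 ± 0.24 (SE), with a 95% interval from 0.43 to 1.49 (edgeR adjusted p = 0.348). In the 6 fits that left out 1 library each it ranged from 0.91 to 1.01 and stayed called. The near-identical Tuba1a read 369.1 and 376.0 CPM in Tau and 326.1 and 337.1 in Tau+UNC0642, lower without overlap but not called (log2 -0.17 ± 0.073), and Tuba1b read 105.8 and 103.3 CPM in Tau and 98.7 and 102.4 in Tau+UNC0642. Counted as 1 gene, Tuba1a, Tuba1b and Tuba1c together had a log2 difference of -0.13, a sum set almost wholly by Tuba1a and Tuba1b. Whether the split of reads among the 3 genes bears on the Tuba1c difference was not tested.

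Tuba1c lies at chr15:99029891-99038110 on the plus strand, in a cluster with Tuba1a (chr15:98949837-98953703, minus strand) and Tuba1b (chr15:98931425-98934565, minus strand). Of 17 other tested genes within 250 kb, none was called up and 1 called down with UNC0642, Kmt2d at -0.40. The 250 bases before its start, chr15:99029641-99029890 on the plus strand, from the RefSeq promoter table for GRCm38.p6, are shown because Tuba1c had the largest difference of the 10 genes under this inhibitor of chromatin enzymes, with matches to the letters CCAAT and TGACG on either strand in capitals.
Tuba1c: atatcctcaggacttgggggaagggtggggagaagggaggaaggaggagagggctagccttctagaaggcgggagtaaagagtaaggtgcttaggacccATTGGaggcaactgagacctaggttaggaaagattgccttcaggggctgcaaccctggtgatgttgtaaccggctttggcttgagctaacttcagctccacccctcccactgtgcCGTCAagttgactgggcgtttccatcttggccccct
Both matches are on the opposite strand, where they read as their complements. Among the promoters of the 9 members in that table, 5 held CCAAT, which 33.8% of 32851 promoters did, and 5 held TGACG, the core of the cyclic AMP response element, which 17.8% did. The GC box GGGCGG was present in 6 of 9 (32.7% of all promoters) but not in Tuba1c, Tubb4a or Tubb5. The full element TGACGTCA, which contains TGACG, was present in Tubb2a only (1.55% of all), as was TATAAA (12.4%), and CACGTG in Tubb5 only (6.02%). A match is a stretch of letters and not a binding site, and Tubb2b was not in the table.

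Tubb4a lies at chr17:57080066-57087782 on the minus strand and shares almost no windows with other genes. It read 276.9 and 261.9 CPM in Tau and 216.1 and 168.8 in Tau+UNC0642, below the 228.1 and 253.2 CPM of WT. Both treated libraries were lower than all 4 others, though they differed from each other by more than any other group did for this gene. The log2 fold change was -0.49 ± 0.11 (SE), with a 95% interval from -0.73 to -0.24 (edgeR adjusted p = 0.327). It was -0.32 without Tau+UNC0642 replicate 2 and -0.68 without Tau+UNC0642 replicate 1, and called in both. Of 14 other tested genes within 250 kb, none was called up and 1 called down, Slc25a23 at -0.37.

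Tubb4a is abundant in oligodendrocytes, and the part of their RNA in its difference was not tested. The 8 markers summed to 2956 and 1458 CPM in the WT libraries, 2039 and 5517 in Tau and 2120 and 2267 in Tau+UNC0642, and none was at 0. In the same order, Tubb4a read 228.1 and 253.2 CPM in WT, 276.9 and 261.9 in Tau and 216.1 and 168.8 in Tau+UNC0642. Without Tau replicate 2, which leaves only Tau replicate 1 in its group, Tubb4a differed between Tau+UNC0642 and Tau by -0.53. The marker sums of Tau replicate 1 and the Tau+UNC0642 libraries lay between 2039 and 2267 CPM.

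**Figure D4:**
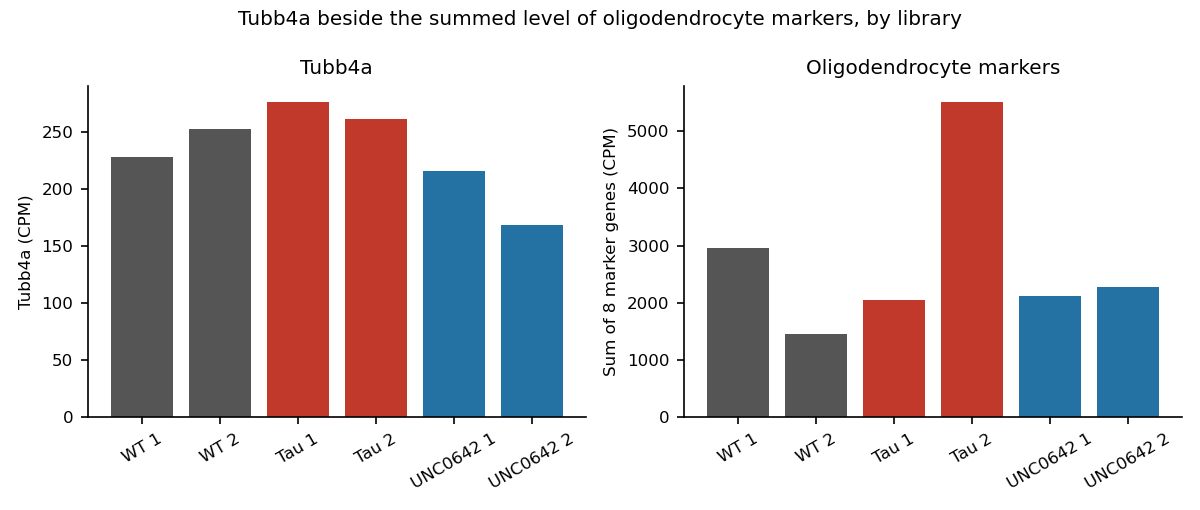
Level of Tubb4a (left, CPM) and the summed level of 8 oligodendrocyte marker genes (right, CPM) in each library (x axis), coloured by group. Tubb4a is lowest in the Tau+UNC0642 libraries, labelled UNC0642, at 216.1 and 168.8 CPM, whereas the marker sum peaks at 5517 CPM in Tau replicate 2.

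The other beta genes changed less with UNC0642. Tubb2b, the gene called in Tau, read 55.5 and 59.3 CPM there and 48.1 and 48.7 in Tau+UNC0642, which is within the span of the WT libraries. Its log2 difference of -0.24 ± 0.099 (edgeR adjusted p = 0.523) was under the fold limit. Tubb3 stood at 378.8 and 368.4 CPM in Tau and 358.8 and 380.3 in Tau+UNC0642, with an interval from -0.18 to 0.15 on the log2 scale. For Tubb2a (409.1 and 428.4 CPM in Tau+UNC0642), Tubb4b (232.6 and 245.3) and Tubb5 (559.1 and 589.9) the groups overlapped, and their log2 differences were 0.02, 0.06 and 0.07. Tuba4a, at 485.5 and 505.8 CPM, lay just above Tau, by 0.05 ± 0.070. In all, both treated libraries lay above both Tau libraries for 2 members (20.4% of all genes) and below for 4 (20.9%). The summed level was 2740 and 2813 CPM, a log2 ratio of -0.04 to Tau.

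With a term for expression from the sex chromosomes, which in this comparison rests on the difference between the library labelled WT replicate 1 and WT replicate 2, the calls changed. Tuba1c kept a log2 difference of 0.83 and Tubb4a of -0.34 but neither was called, while Tuba1a at -0.28 and Tubb2b at -0.44 were.

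**Figure D5:**
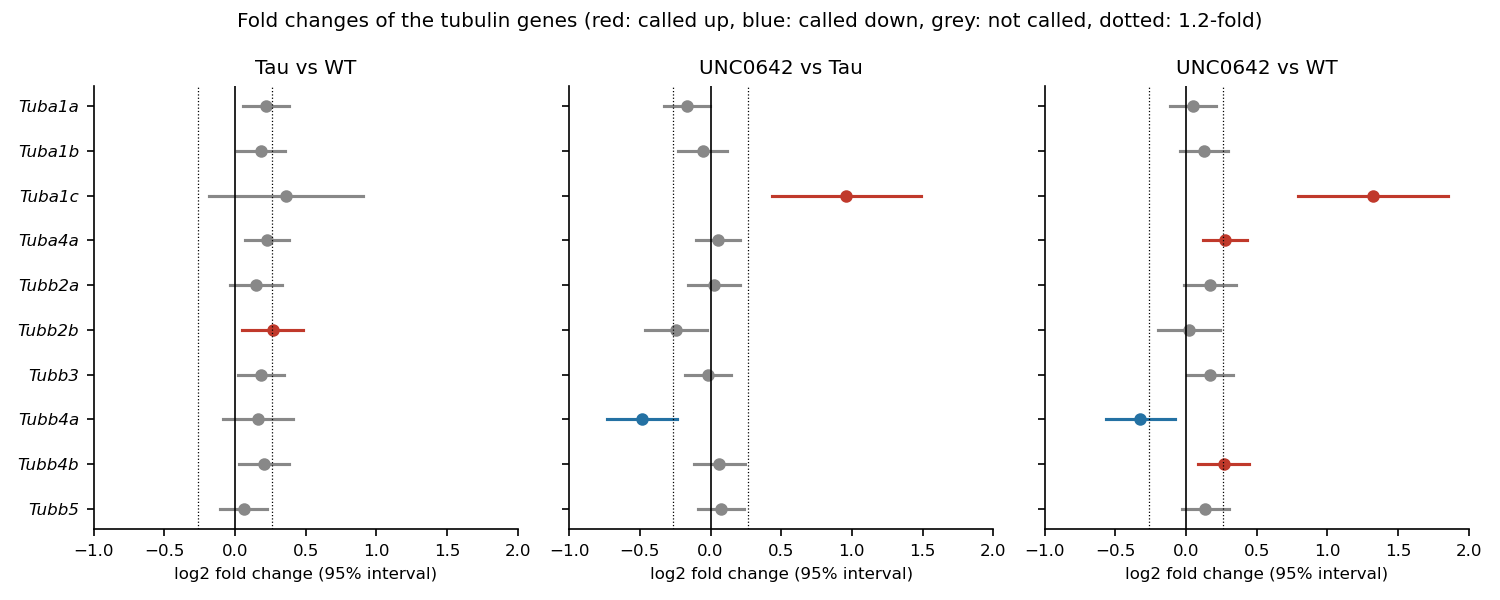
Log2 fold change of each tubulin gene (x axis) with its 95% interval from edgeR in the 3 comparisons (panels, Tau+UNC0642 labelled UNC0642), with called genes in red or blue and dotted lines at a 1.2-fold change. In Tau vs WT all 10 points lie right of 0, and with UNC0642 the intervals of Tuba1c and Tubb4a lie on opposite sides of 0.

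Against WT, the Tau+UNC0642 libraries had 4 of 10 members called by edgeR, 3 up and 1 down, where 9.47% of all genes were called, 3.77% up and 5.69% down. This comparison shares its libraries with both others and is given as values beside them. Tuba1c was higher by 1.32 ± 0.24 on the log2 scale (edgeR adjusted p = 0.0686), from 2.37 CPM ± 0.15 in WT to 5.95 ± 0.30 (SD, n = 2 each). Tuba4a was higher by 0.28 ± 0.070 (edgeR adjusted p = 0.175) and Tubb4b by 0.27 ± 0.080 (edgeR adjusted p = 0.244), and Tubb4a was lower by a log2 difference of -0.32 ± 0.11 (edgeR adjusted p = 0.292). None passed an adjusted p of 0.05 in edgeR (0.216% of all genes) or limma-voom, with 5 at an unadjusted p under 0.05 in each (12.1% of all genes in edgeR). In DESeq2, Tuba1c and Tuba4a passed an adjusted p of 0.05, where 270 genes passed in all, against 44 in edgeR. Without the library labelled WT replicate 1 the same 4 genes were called, with Tuba1c at 1.39, Tuba4a at 0.29, Tubb4b at 0.35 and Tubb4a at -0.40. Without WT replicate 2, which leaves only libraries that lack Xist but has the library labelled WT replicate 1 as its sole WT sample, Tuba1c alone was called, at 1.26, with Tubb4a at -0.25. Without Tau+UNC0642 replicate 2 Tuba1c alone was called as well, at 1.37, with Tubb4a at -0.16.

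Outside the members, 10 other tubulin genes were listed. Tubg1, a gamma tubulin, read 23.2 to 27.8 CPM. Tuba8 read 4.81 to 9.97 CPM and Tubb6 1.84 to 4.54 CPM, and Tuba3a, Tuba3b, Tubal3 and Tubb1, with 0 to 6 counts a library, were not tested. Of the 6 tested genes among these 10 other tubulins, none was called in Tau vs WT, and 1 fell with UNC0642. This was Tubg2, a gamma tubulin of the complex that starts microtubules, with 23.99 and 24.10 CPM in Tau and 17.2 and 17.7 in Tau+UNC0642 (log2 -0.46 ± 0.12, edgeR adjusted p = 0.353). Its groups were well apart. Tubg2 was also called with the term for sex chromosome expression, but that term rests here on the library labelled WT replicate 1 against WT replicate 2. It cannot separate UNC0642 from sex.

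Counts for the proteins that fold, bind and modify tubulin stand beside 9.81% of all genes called in Tau vs WT and 7.69% with UNC0642. Of 22 folding factors, which bring new chains to the assembled dimer, 1 rose in Tau, the prefoldin subunit Pfdn4 at 0.38, and none was called with UNC0642, the list medians being 0.10 and 0.06. Pfdn4 was not called without the library labelled WT replicate 1, without WT replicate 2, without Tau replicate 1 or with the sex chromosome term. With that term, the chaperonin subunits Tcp1, Cct6a and Cct8 and the prefoldin subunit Pfdn6 were called up in Tau. Ttc5, which triggers the decay of tubulin mRNA, read 31.0 to 37.3 CPM over all libraries and was not called. Of 17 proteins that bind the dimer or sever microtubules, 2 rose in Tau. These were Stmn4, which sequesters dimers, at 0.27 and Tppp3, which bundles microtubules, at 0.48. Neither was called without Tau replicate 2. Stmn4 was also not called without the library labelled WT replicate 1 or with the sex chromosome term, nor Tppp3 without WT replicate 2. With UNC0642 2 fell, Stmn4 at -0.29 and Dpysl5, a collapsin response mediator protein, at -0.65. Dpysl5 was also called with the sex chromosome term, which cannot separate UNC0642 from sex in this comparison. Stmn4 was not called with that term or without Tau replicate 2 or Tau+UNC0642 replicate 1.

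Of 26 tested modifying enzymes, none was called in Tau vs WT and 2 fell with UNC0642: Vash1, which removes the terminal tyrosine of alpha tubulin, at -0.35, and the glutamylase Ttll13, at -1.08 from levels of 1.07 and 1.49 CPM, which was not called in 4 of the 6 fits that left out 1 library, nor with the sex chromosome term. Vash1 was not called with that term, without Tau replicate 1 or without Tau+UNC0642 replicate 1. The acetylation eraser Hdac6 (45.8 to 53.4 CPM) and the tyrosine ligase Ttl (84.2 to 98.5 CPM) were not called. Of 18 nucleation factors, the augmin subunits Haus2 and Haus4 were called in opposite directions in Tau, at 0.87 and -1.05, and the other way with UNC0642, at -0.47 and 1.01. With UNC0642, Haus4 was not called in any fit that left out a Tau or Tau+UNC0642 library, nor with the sex chromosome term, and Haus2 was not called without Tau replicate 2 or without Tau+UNC0642 replicate 2. Haus2 read 16.5 and 13.4 CPM in WT, 25.89 and 28.97 in Tau and 24.04 and 15.84 in Tau+UNC0642, and its rise in Tau was also called without the library labelled WT replicate 1. Haus4 was rare, with as little as 0.916 CPM in Tau replicate 2, and its fall in Tau was not called without the library labelled WT replicate 1, without either Tau library or with the sex chromosome term. The medians of these 4 lists, from -0.10 to 0.11 in both comparisons, stand beside medians near 0 over all genes tested.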

How the data were processed

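Total RNA of bulk PFC lysate was depleted of ribosomal RNA, made into stranded libraries and sequenced by the authors, who trimmed reads with Cutadapt, aligned them with TopHat2 and counted them per gene with featureCounts. The submitters' processing notes name build mm10. The deposited tables hold raw counts per gene, 1 file a library. Strand setting and treatment of reads matching several genes are not given in the sources used here. Dates stood in place of 26 gene names, none a tubulin, in 2 of the 6 files. The members and gene lists were chosen with earlier results of these data known.

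Counts were joined by symbol and fitted with edgeR 4.0.16 in R 4.3.3 (filterByExpr, TMM, quasi-likelihood test) on all 6 libraries by group, with 3 residual degrees of freedom, after the script was tested on simulated data. The call rule was p under 0.05 with a difference of 1.2-fold or more, and p-values were adjusted by Benjamini-Hochberg over 20409 genes. All 10 members are named, and of the lists and neighbours only called genes and those with a stated role. Depth was 17005664 to 28972176 counts, so that 3 counts were worth 0.107 to 0.178 CPM. The study describes the 2 libraries a group as biological duplicates. With 2 libraries against 2 an exact permutation test cannot reach 0.05 and was not used. Alternatives were DESeq2 1.42.0, limma 3.58.1 (voom), other scalings, filters and thresholds, each library left out, a replicate block and a term for Xist above Y-linked genes. The share of all genes called in the fits without a library is not given here, so counts from them have no share beside them. Lengths and coordinates came from GENCODE for GRCm38, promoters from RefSeq. Protein sequences were not used here. Some sequences are not reported here.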

Additional observations from a re-analysis of the deposited data

How the results depend on the processing

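In Tau vs WT, where 1 member was called, 0 were called at a fold limit of 1.5, at an adjusted p of 0.05, with total-count scaling, with no filter, with at least 10 counts in every library or with only the 2 groups fitted, 6 without a fold limit and 3 with the sex term; leaving out 1 library gave 0 to 3. The median of 0.19 became 0.12 with total-count scaling and 0.24 with the sex term, and 0.16 to 0.23 with 1 library left out. In Tau+UNC0642 vs Tau, where 2 were called, 1 remained at a limit of 1.5, 4 passed without one and 0 at an adjusted p of 0.05; leaving out 1 library gave 2 to 3, and the median of 0.0032 turned to -0.11 with the sex term and ranged from -0.042 (without Tau replicate 2) and -0.035 (without Tau+UNC0642 replicate 2) to 0.039. In Tau+UNC0642 vs WT, where 4 were called, 1 passed at a limit of 1.5 and with the sex term, 0 at an adjusted p of 0.05, 2 with total-count scaling and with at least 10 counts, and 1 to 4 with 1 library left out; the median of 0.15 became 0.11 with total counts and with the sex term and ranged from 0.11 to 0.19. The summed log2 ratio fell from 0.17 to 0.097 (Tau vs WT) and from 0.13 to 0.092 (Tau+UNC0642 vs WT) with total-count scaling. The Tubb2a share of beta tubulin in WT, 29.3%, was 26.9% with the length of 1 transcript a gene and 21.8% with reads not divided by length. The 1-transcript length, like the sum of Tuba1a, Tuba1b and Tuba1c, was chosen after seeing the data.

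Signs turned only for differences near 0: with total-count scaling, Tubb5 in Tau vs WT (-0.0070), Tubb3 in Tau+UNC0642 vs Tau (0.015) and Tubb2b in Tau+UNC0642 vs WT (-0.017); with the sex term, Tubb2a (-0.13) and Tubb4b (-0.099) against Tau and Tuba1a (-0.0055) and Tubb2b (-0.073) against WT; with 1 library left out, Tubb3 (-0.058 to 0.025) and Tubb2a (-0.045 to 0.089) against Tau and Tuba1a (-0.0051 to 0.10) and Tubb2b (-0.073 to 0.12) against WT. The causes were not tested. With the replicate number as a block, 1, 2 and 4 members were called and the medians were 0.20, 0.0047 and 0.15. Differences between replicates 1 and 2 correlated at -0.070, -0.038 and -0.014 between groups over 20409 genes. These correlations cannot show whether equal numbers mark a pair or a batch. Total-count scaling moved the median of all genes in Tau vs WT to -0.07. The 2 libraries a group limit every comparison, and Tuba1c rests on 52 to 130 counts a library.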

Other observations

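Other genes were ranked by how closely their levels over the 6 libraries followed the summed level of the 10 tubulins. Each log2 CPM profile was centred on its own mean, and the root mean square difference was taken over the libraries. This was done for 10189 genes with a mean of at least 10 CPM. The nearest were Nceh1 (0.0095), Ap3b2, a neuronal subunit of an adaptor complex (0.011), Gm9816 (0.012), Dad1, a subunit of the oligosaccharyltransferase (0.013), and Nsf, the ATPase that takes SNARE complexes apart (0.015). The median difference over all these genes was 0.117.

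The ratio of alpha to beta tubulin, as summed CPM, was 0.483 and 0.480 in the WT libraries, 0.493 and 0.523 in Tau and 0.503 and 0.511 in Tau+UNC0642. Both transgenic groups lay above the 2 libraries labelled WT. The nearest values were 0.493 in Tau replicate 1 and 0.483 in the library labelled WT replicate 1, whose label is in doubt. The pseudogene Tubb4b-ps1 was listed with 272 to 509 counts a library.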
